A study of Mus musculus with 16 samples.

Results

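Arrays numbered 4 were compared with arrays numbered 3 in HL-1 cells, a mouse line of atrial cardiomyocytes. The 8 arrays were chosen by the number at the end of their titles alone, out of 16 arrays in the series, and no measured value entered the choice. They carry 4 labels, with 1 array of each number per label: Vehicle (PBS, neither hormone added), Dex (100 nM dexamethasone, a synthetic glucocorticoid), E2 (10 nM estradiol) and Dex+E2 (100 nM dexamethasone and 10 nM estradiol together). All cells were of the same line, labelled female, were cultured in Claycomb medium and were harvested after 6 h of treatment. HL-1 is a single line that was derived from an atrial tumour of a mouse carrying the SV40 large T antigen under an atrial natriuretic factor promoter, and it goes on dividing in culture. The submitters state that 4 independent experiments were done. Where 2 arrays of a label come from separate cultures is not otherwise given, so p-values measure the spread between these arrays.

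The numbers 3 and 4 of a label lie side by side on 1 slide, so each of the 4 labels gives a pair within a slide. The Vehicle pair lies on slide 2, the Dex pair on slide 3, and the E2 and Dex+E2 pairs on slide 4. Slide 1 holds none of the 8 arrays. In every pair, number 4 took the slide position that follows number 3, so number and position cannot be told apart. The arrays numbered 1 and 2 of a label are also neighbours on 1 slide, but mostly at other positions. They lie at positions 1 and 2 for Vehicle and at 3 and 4 for the other labels. Numbers 3 and 4 lie at positions 3 and 4 for Dex+E2 and at 1 and 2 for the other labels. The comparison of number 2 with number 1 is given after the gene groups.

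Glucocorticoids enter the cell and bind the glucocorticoid receptor, a transcription factor encoded by Nr3c1. The bound receptor moves to the nucleus, where it attaches to palindromic DNA elements and raises or lowers transcription of nearby genes within hours. Its well known targets include the clock gene Per1, the transcription factor Klf15, the arrestin-domain gene Arrdc2, the co-chaperone Fkbp5 and the leucine zipper protein GILZ (Tsc22d3), and in many cell types it lowers cytokine genes driven by NF-kB. In the heart, glucocorticoid signalling takes part in maturation and in the control of metabolism, calcium handling and contraction.

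Per1, Klf15 and Arrdc2 went against the label of 4 of the 8 arrays. Levels are log2 values of the processed signal relative to the 75th percentile of the same array, which is set at 0. The level of Per1 was -1.16 on Vehicle 3, -1.20 on Dex 3, -1.34 on E2 3 and -1.18 on Dex+E2 3. On the arrays numbered 4 it was 1.68 on Vehicle 4, 1.95 on Dex 4, 1.90 on E2 4 and 1.90 on Dex+E2 4. All 4 arrays numbered 4 were thus high and all 4 numbered 3 were low, whichever hormone the label names. Klf15 lay between 0.47 and 0.57 on the arrays numbered 3 and between 2.34 and 2.51 on those numbered 4. Arrdc2 lay between -4.16 and -3.25 on the arrays numbered 3 and between -0.65 and -0.38 on those numbered 4. The libraries labelled Vehicle 4 and E2 4 were therefore high without dexamethasone in their label, and those labelled Dex 3 and Dex+E2 3 were low with it. Each result by number below is a difference between array numbers, and its direction is not that of a hormone named in the labels of these 8 arrays. The Dex labels of the arrays numbered 1 and 2 are set beside it after the gene groups.

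The atrial identity of the cells was checked on the same arrays. All 8 atrial cardiomyocyte markers examined (Nppa, Myh6, Myl7, Myl4, Actc1, Tnnt2, Ryr2 and Actn2) were well above background on all 8 arrays, and none was called different between the numbers. Their summed level ranged from 9.10 to 9.16 on arrays numbered 3 and from 9.06 to 9.30 on arrays numbered 4. Of 7 fibroblast markers 4 were above background on all arrays, with a summed level of 4.81 to 4.94 on number 3 and 4.56 to 4.74 on number 4. This sum follows Col1a1, whose own level was 4.55 to 4.93. The 4 differed by -0.20 (Col1a1), -0.16 (Col1a2), -0.05 (Pdgfra) and 0.15 (Dcn), and none was called. Lum and Postn were above background on no array. Of 6 leukocyte markers 2 were above background on all arrays (-3.06 to -2.39 against -3.09 to -2.90), and 3 were above it on none. Of 6 endothelial markers 2 were above background on all arrays, and Pecam1, Cdh5 and Emcn were above it on none. The endothelial sum was 0.12 to 0.41 on number 3 and 0.82 to 1.15 on number 4, which follows Kdr, a VEGF receptor gene that was called. Depth, in the sense of array brightness, was similar: the 75th percentile of the signal was 503 to 534 intensity units on number 3 and 434 to 575 on number 4. The share of probes well above background was 58.8% to 65.0% on arrays numbered 3 and 59.3% to 65.6% on those numbered 4. Vehicle 3 stood apart from the other 7 arrays on the first principal component (-65.6 against 1.59 to 14.5), which held 40.1% of the variance. The second component, with 24.3%, placed the arrays numbered 4 between 12.1 and 19.1 and those numbered 3 between -43.1 and 0.65.

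Across all genes, 648 of 17355 tested (3.73%) differed between numbers 4 and 3 at an adjusted p under 0.05 (limma with label as a block, Benjamini-Hochberg over all genes, two-sided), and these are the genes called below. Of these, 319 were higher on number 4 (1.84% of those tested) and 329 were lower (1.9%). At an unadjusted p under 0.05 there were 2933, where 868 would be expected by chance. All 4 pairs had a value and the same sign for 317 of the 319 and for 328 of the 329. Genes lacking a value in a pair were counted as not matching, here and in the shares that follow. Over all genes tested, 26.1% had the same sign in all 4 pairs, with 1722 higher in every pair (9.92%) and 2807 lower (16.2%). The arrays of the 2 numbers did not overlap for 315 of the genes called higher and 323 of those called lower, and for 12.8% of all genes tested. With 4 pairs an exact sign-flip test of a single gene cannot go below p = 0.125, so each call draws on the spread that limma shares across genes.

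The higher genes had the larger differences. Their median difference was 0.76 on the log2 scale (1.69-fold), against -0.51 (1.42-fold lower) for the genes called lower. Among the genes called higher 96 differed by at least 2-fold and 20 by at least 4-fold, against 22 and 1 among those called lower. Counting only genes that moved by a set size in every pair, 63 genes were at least 1 log2 unit higher in all 4 pairs and 8 were at least 1 unit lower. At 2 units these counts were 12 and 0. The medians of the higher genes lay close together across labels, at 0.76 in the Vehicle pair, 0.69 in the Dex pair, 0.81 in the E2 pair and 0.75 in the Dex+E2 pair. Among the lower genes it was -0.44, -0.58, -0.43 and -0.56 in the same order. Of the genes called, 19 higher and 5 lower passed the filter on dim probes through 1 number only, as did 916 of all genes tested.

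The 15 largest rises and the 15 largest falls are those among called genes with a symbol, the same sign in all 4 pairs and no overlap between the numbers. Slc10a6, a transporter of sulfated steroids, had levels of -6.13, -6.18, -6.82 and -7.13 on Vehicle 3, Dex 3, E2 3 and Dex+E2 3. On the matching arrays numbered 4 it had -1.55, -1.65, -1.67 and -1.64. All 4 arrays numbered 4 were higher than all 4 numbered 3. Its probe was well above background on 1 of the 4 arrays numbered 3 and on all 4 numbered 4, so the measured difference of 4.94 is taken against a level that 3 arrays did not resolve and has no exact size. Trim67, of the TRIM family of ubiquitin ligases, lay at -4.36, -3.91, -4.63 and -4.12 on number 3 and at -0.18, -0.35, 0.01 and -0.30 on number 4, above background throughout. Its difference was 4.05 ± 0.18 (SE, 4 pairs, limma adjusted p = 0.000342), with no overlap.

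Per1 differed by 3.08 ± 0.08 and Arrdc2 by 3.09 ± 0.13 (limma adjusted p = 7.65e-05 and 0.000303). Tent5b, of a family of noncanonical poly(A) polymerases, rose by 2.82 ± 0.07 and Adamts1, a secreted metalloproteinase, by 2.55 ± 0.09. B4galnt1, which makes complex gangliosides, was 2.40 ± 0.07 higher by its main probe and 1.36 higher by another. Plin4, a coat protein of lipid droplets, rose by 2.34 ± 0.15, and its arrays ranged from -0.37 to -0.14 on number 3 and from 1.69 to 2.56 on number 4. Map3k6, a stress-responsive kinase related to ASK1, rose by 2.17 ± 0.08. The other genes of these 15 rises were Prr15l (2.28), Thsd7a (above background on 1 of 4 arrays numbered 3), the tight junction gene Cldn2 (2.26) and Slc45a3 (2.24). Kcnh1, a voltage-gated potassium channel, and Drd4, a dopamine receptor, completed these 15. Neither was well above background on any array numbered 3 and both were on all 4 numbered 4, so they were at least 2.68-fold and at least 2.89-fold higher. Such a bound sets the mean of the bright arrays against, on each dim array, the higher of the probe's own level and the lowest signal among probes above background.

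**Figure D1:**
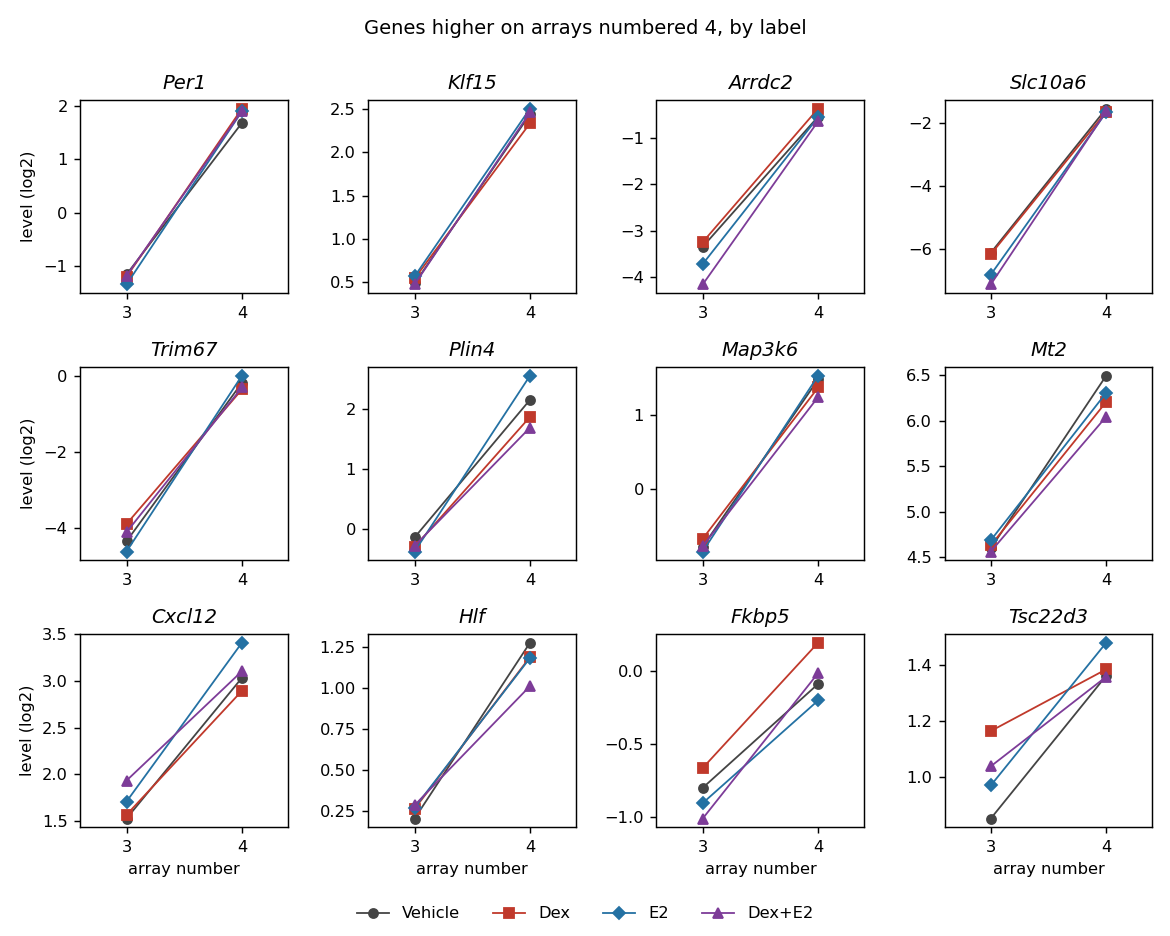
Levels (log2 processed signal relative to that array's 75th percentile) of 12 genes called higher on arrays numbered 4; each line joins the arrays numbered 3 and 4 of 1 label. The 4 lines rise in every panel, and for Per1 the arrays numbered 4 lie between 1.68 and 1.95 whatever their label.

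The largest falls were smaller than the largest rises. Tmem150b and Rab7b, a small GTPase, were above background on all 4 arrays numbered 3 and on 1 of 4 numbered 4. Their measured differences of -2.24 and -1.96 are therefore taken against levels that 3 arrays did not resolve. Lhcgr differed by -1.80 and is not among the 15, since its arrays overlapped. Gna14, a G protein alpha subunit of the Gq family, fell by 1.55 ± 0.14. Nmrk2, the muscle-enriched nicotinamide riboside kinase that feeds NAD synthesis, had levels of 0.57, 0.83, 0.65 and 0.79 on Vehicle 3, Dex 3, E2 3 and Dex+E2 3 and of -0.66, -0.76, -0.46 and -0.88 on number 4. It fell by 1.40 ± 0.11 (limma adjusted p = 0.00205), with no overlap. Efnb3, an ephrin ligand, had the tightest fall of this group, by 1.20 ± 0.05, from 1.22 to 1.30 on number 3 down to 0.04 to 0.09 on number 4. Heyl, a Notch effector, fell by 1.27 ± 0.16, and Dio2, the deiodinase that activates thyroid hormone, by 1.08 ± 0.19. The other genes of these 15 falls were the T-type calcium channel Cacna1g, Ppfibp2 (-1.32), Rflna (-1.27), the connexin Gja5, the chemokine Cxcl10, Etl4 (-1.14), Sncaip (-1.12) and Ppp2r2b (-1.12).

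Promoters of called genes were searched for the palindrome that the glucocorticoid receptor binds, in the 250 bases before each start (RefSeq, GRCm38.p6). The relaxed form GNACANNNTGTNC, which reads the same on both strands, was present in 5 of 218 genes called higher that matched a promoter by symbol (2.29%) and in 2 of 230 called lower (0.870%). It was present in 32 of 10303 tested genes with a promoter (0.311%) and in 119 of all 27025 promoters (0.440%). The full form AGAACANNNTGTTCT, which contains the relaxed one, was found in Sgk1 alone among the called genes, and in 3 of all 27025 promoters. The 5 higher genes were Slc10a6, Map3k6, Mt1, Car14 and Sgk1, and the 2 lower ones were Tinagl1 and Trim63. A match is a description of the letters and does not show binding. The 5 windows below are shown because Slc10a6, Map3k6 and Mt1 were among the large rises, Sgk1 held the full form, and Trim63 held a relaxed match but fell. They are written 5′ to 3′ on the strand of the gene with the relaxed match in capitals, and stand at chr5:103629524-103629596 (minus strand), chr4:133240607-133240679, chr8:94178965-94179037, chr10:21993672-21993744 and chr4:134314882-134314954 (plus strand), with the match beginning 163, 181, 94, 188 and 208 bases before the start.
Slc10a6: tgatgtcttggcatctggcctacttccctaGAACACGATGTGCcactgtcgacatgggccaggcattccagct
Map3k6: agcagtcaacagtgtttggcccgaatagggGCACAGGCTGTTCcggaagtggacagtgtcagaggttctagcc
Mt1: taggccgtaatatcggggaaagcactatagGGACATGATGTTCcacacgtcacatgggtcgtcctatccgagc
Sgk1: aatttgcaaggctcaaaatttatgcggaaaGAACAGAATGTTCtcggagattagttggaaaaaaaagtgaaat
Trim63: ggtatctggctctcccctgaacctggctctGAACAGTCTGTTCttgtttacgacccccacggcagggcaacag

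Known glucocorticoid-induced genes were the list with the most calls. Of its 36 tested members 20 were called higher and 1 lower (58.3% against 3.73% of all genes), and the median difference was 0.45 against -0.04 over all genes. That median was 0.40 to 0.48 under the other scalings. The members of this and the other lists were chosen with earlier results of these data known. These shares therefore describe the lists and are not a test of them. Besides Per1, Klf15, Arrdc2 and Map3k6, the transcription factors Cebpb (1.41 ± 0.07), Cebpd (1.43 ± 0.12) and Klf9 (1.02 ± 0.06) rose. The metallothioneins, small cysteine-rich proteins that bind zinc, rose as well: Mt2 went from 4.56 to 4.69 on number 3 to 6.05 to 6.50 on number 4 (1.65 ± 0.09), and Mt1 differed by 1.11 ± 0.10. Near-identical metallothionein copies can share a probe's signal. Fkbp5, a co-chaperone that limits hormone binding by the receptor, rose by 0.81 ± 0.07, and its probes gave 0.42 to 0.96.

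The rest of the called members are named in full, and were chosen for naming after their values were seen. They were Ampd3 (1.23), the clock gene Per2 (1.23), the repressor Bcl6 (0.81), the mTORC1 inhibitor Ddit4 (0.73), the NF-kB inhibitor Nfkbia (0.71), Pdk4 (0.65), which restrains pyruvate oxidation, Lpin1 (0.52), the EGFR inhibitor Errfi1 (0.50), the kinase Sgk1 (0.40) and GILZ, Tsc22d3 (0.39). For Tsc22d3 the levels were 0.85, 1.16, 0.97 and 1.04 on number 3 and 1.36, 1.39, 1.48 and 1.36 on number 4, a small but separated difference (limma adjusted p = 0.039). Trim63, a muscle ubiquitin ligase of the atrophy programme, was the member called lower (-0.47 ± 0.06, adjusted p = 0.010). Fbxo32, the other classical atrophy ligase, was at -0.19 and Dusp1, a MAP kinase phosphatase, at -0.12, and neither was called (limma adjusted p = 0.48 and 0.49). Zbtb16 had no named probe.

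Of 18 tested clock genes 6 were called higher and 1 lower (38.9% against 3.73% of all genes). Hlf, a PAR bZIP output factor, lay at 0.21 to 0.29 on number 3 and at 1.01 to 1.28 on number 4 (0.91 ± 0.07). The repressors Cry2 (0.76 ± 0.11) and Ciart (0.49) and the bZIP factor Nfil3 (0.47) rose. Nr1d1, the nuclear receptor REV-ERBα, fell by 0.45. The core activators Arntl (0.28) and Clock (-0.04) and the period gene Per3 (0.01) were not called. For Per2 another probe of the gene gave 0.14, so the size of its difference depends on the probe.

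**Figure D2:**
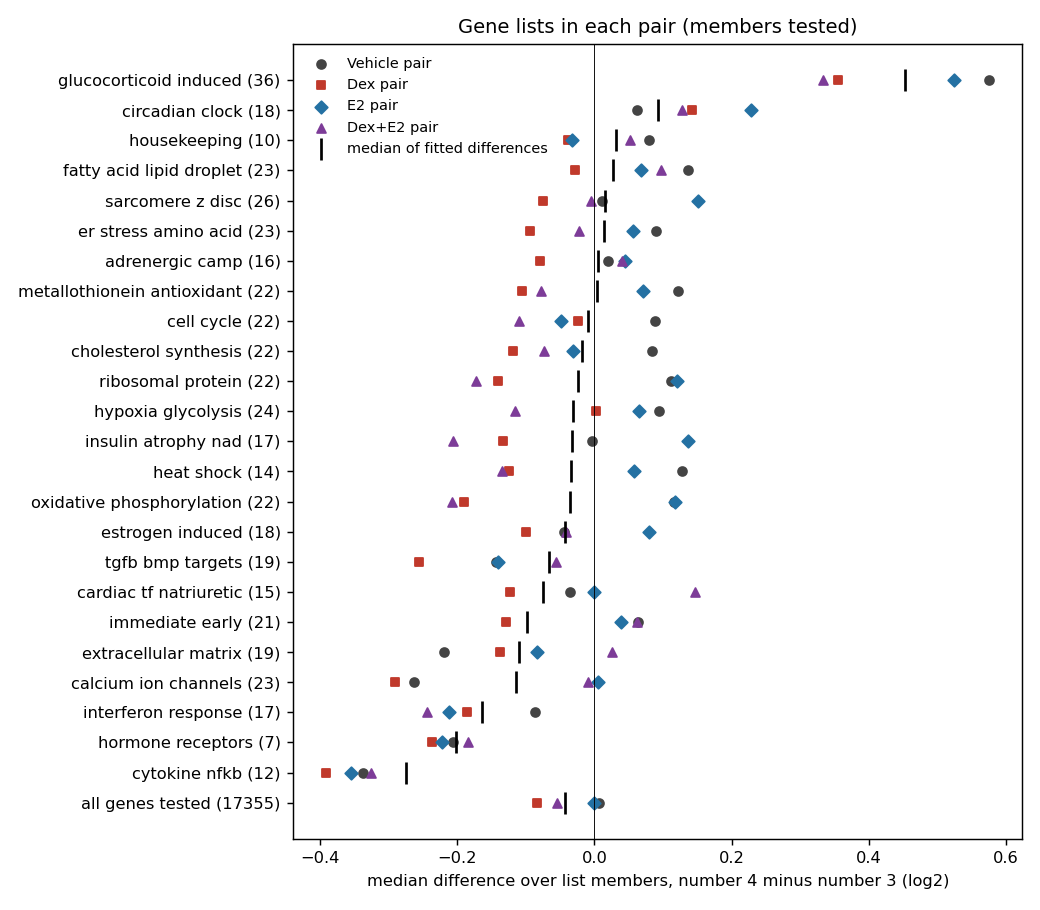
Median difference over the tested members of each gene list, number 4 minus number 3 (log2), in each of the 4 pairs and in the fit over all pairs; the count of tested members is in brackets. The glucocorticoid-induced list lies between 0.33 and 0.58 in the 4 pairs and the cytokine and NF-kB list between -0.39 and -0.33.

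Lipid handling and fuel genes were next. Of 23 tested genes of fatty acid use and lipid droplets 5 were called higher and 1 lower (26.1%, against 3.73% of all genes). Of the perilipins, Plin4 and Plin5 (0.90 ± 0.14) rose, while Plin2 fell by 0.43. The fatty acid transporter Cd36 (0.53 ± 0.08), the acyl-CoA synthetase Acsl1 (0.35) and Pdk4 also rose. The oxidation genes Cpt1b (-0.19), Acadm (-0.11) and Acadl (0.03) were not called. In NAD synthesis Nampt rose by 0.54 ± 0.06 while Nmrk2 fell, and the glucose transporter Slc2a1 rose by 0.55 ± 0.07 with no other hypoxia or glycolysis gene called among 24 (4.17%). The glycolysis genes Ldha (-0.06) and Pgk1 (0.04) moved little. Sesn1, a stress-induced inhibitor of mTORC1, rose by 0.69 ± 0.08.

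Of 23 tested calcium handling and ion channel genes 4 were called lower and 1 higher (21.7%, against 3.73% of all genes). Cacna1g, the T-type channel Cav3.1, had levels of 0.04, -0.16, -0.26 and 0.06 on number 3 and of -1.36, -1.61, -1.04 and -1.71 on number 4. It fell by 1.35 ± 0.15 (limma adjusted p = 0.0086), and another probe fell by 0.72. The gap junction genes Gja1 (connexin 43) and Gja5 (connexin 40) fell by 0.81 ± 0.10 and 1.19 ± 0.13, but a further Gja5 probe did not move (0.01), and the Gja5 call was lost when probes were averaged. Kcnh2, the hERG channel gene, fell by 0.38. Sarcolipin (Sln), an inhibitor of the calcium pump SERCA, rose from 2.18 to 2.39 up to 3.11 to 3.26, by 0.90 ± 0.07. The pump gene Atp2a2 (0.09), Ryr2 (0.03) and Pln (0.04) were not called.

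Of 26 tested sarcomere and Z-disc genes 2 were called higher and 1 lower (11.5% against 3.73% of all genes). Myoz2, the Z-disc protein calsarcin-1, rose by 0.99 ± 0.06 and Myh7, the slow myosin heavy chain, by 0.92 ± 0.11. Myh7 and Myh6 are near-identical neighbours, and Myh6 differed by 0.35 ± 0.09 (limma adjusted p = 0.094). Csrp3, the muscle LIM protein, fell by 0.40 ± 0.06. Of 15 cardiac transcription factors and natriuretic peptides 2 were called (13.3%). Gata6 rose by 0.81 ± 0.06 and Nppb fell by 0.54 ± 0.09, while Nppa was at -0.37 ± 0.08 (adjusted p = 0.059) and Gata4 at -0.09. The Nppb call was lost under each of the 3 other scalings run.

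Of 12 tested cytokine and NF-kB genes 3 were called lower and none higher (25%, against 3.73% of all genes). In all 4 pairs 11 of the 12 were lower, as were 16.2% of all genes. The median difference of the list was -0.28, and -0.13 to -0.27 under the other scalings. The NF-kB subunit Relb fell by 0.65 ± 0.05, from 1.62 to 1.76 down to 0.96 to 1.14, and the adhesion molecule Vcam1 by 0.76 ± 0.08. Another Vcam1 probe gave -0.42. The inhibitor gene Nfkbie fell by 0.68 ± 0.08. Il6 was at -0.81 with a limma adjusted p of 0.053. Of 17 interferon response genes (5.88% called) Cxcl10, a chemokine, was the only call (-1.17 ± 0.09), with levels of -0.02 to 0.29 on number 3 and -1.13 to -0.86 on number 4. Among 21 immediate early genes (19.0% called) Egr1 (-0.77 ± 0.10) and Ier3 (-0.62 ± 0.06) fell, and Fosl2 (0.56 ± 0.10) and Klf6 (0.35 ± 0.06) rose. Another Fosl2 probe gave 0.40, and the Fosl2 call was lost when probes were averaged. Fos (0.14) and Jun (-0.07) were not called.

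**Figure D3:**
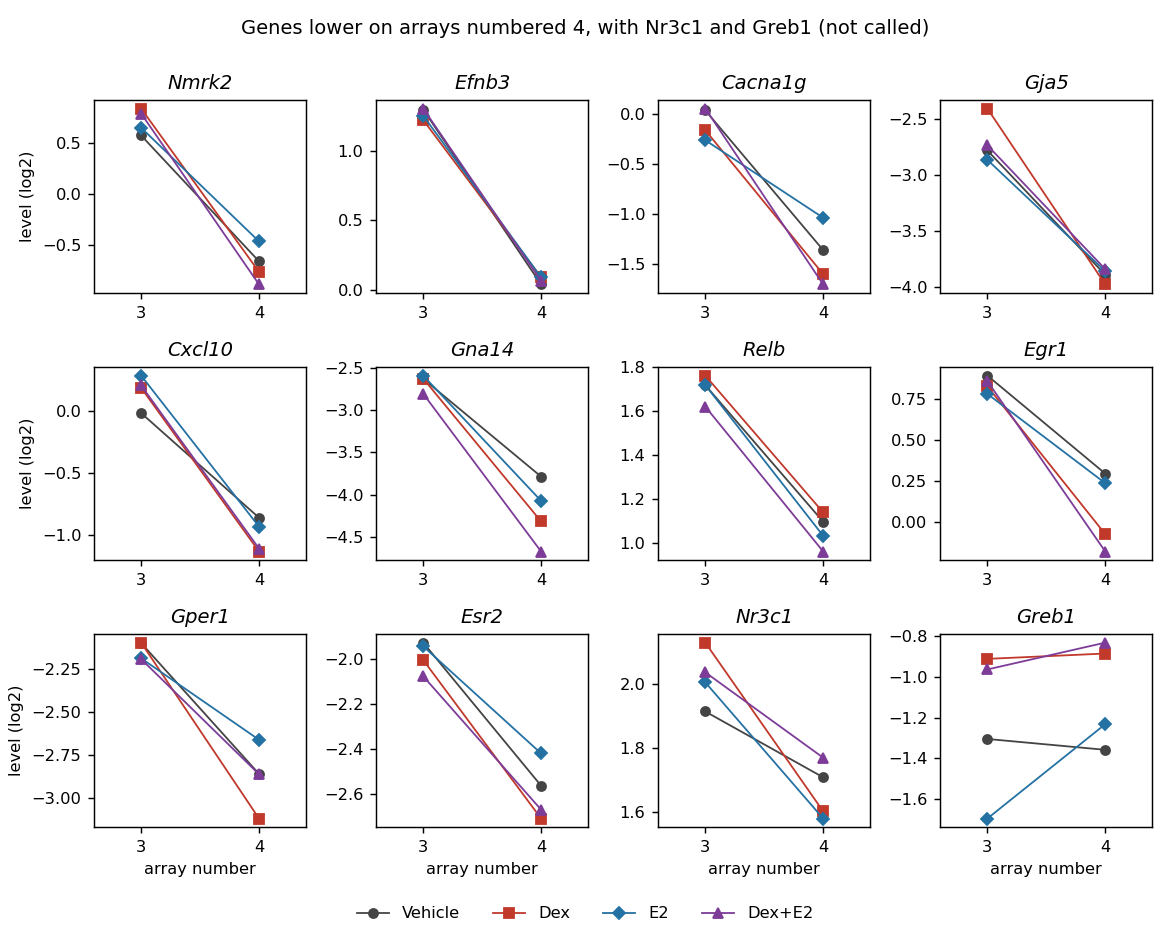
Levels (log2 processed signal relative to that array's 75th percentile) of 10 genes called lower on arrays numbered 4, with Nr3c1 and Greb1, which were not called; each line joins the arrays of 1 label. Nmrk2 and Efnb3 fall in all 4 pairs, and Greb1 separates labels with Dex from labels without.

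Of 7 tested receptor and hormone-metabolism genes 2 were called (28.6%, against 3.73% of all genes), both lower. Esr2, estrogen receptor beta, fell by 0.60 ± 0.08, and Gper1, the G protein-coupled estrogen receptor, by 0.73 ± 0.11. None of the 8 arrays had Esr1, the gene of the alpha receptor, well above background, and 1 had Pgr, the progesterone receptor gene. Nr3c1, the glucocorticoid receptor itself, had levels of 1.91, 2.13, 2.00 and 2.04 on number 3 and of 1.71, 1.60, 1.58 and 1.77 on number 4. It was lower in all 4 pairs with no overlap, by 0.36 ± 0.07, and missed the threshold (limma adjusted p = 0.052). Another Nr3c1 probe gave -0.08.

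Estrogen-induced genes had 2 calls higher and 1 lower among 18 tested (16.7%, against 3.73% of all genes). Cxcl12, a chemokine, rose by 1.43 ± 0.09 and Stc2, a secreted glycoprotein, by 0.48 ± 0.08, while the survival gene Bcl2 fell by 0.56 ± 0.08. Another probe gave 0.86 for Cxcl12 and -0.23 for Bcl2, and the Bcl2 call was lost when probes were averaged. Greb1, a classical estrogen receptor target, did not follow the number (0.14 ± 0.10, limma adjusted p = 0.52). Its levels were -1.31 and -1.36 on Vehicle 3 and 4, -1.70 and -1.23 on E2 3 and 4, -0.91 and -0.88 on Dex 3 and 4, and -0.96 and -0.83 on Dex+E2 3 and 4. The 4 arrays with Dex in their label were thus above the 4 without, by 0.50 on the log2 scale, but this comparison across slides did not pass the test (limma adjusted p = 0.67). In the arrays numbered 1 and 2 the same label difference of Greb1 was 0.67 (limma adjusted p = 0.012).

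Several programmes had no calls: 22 cell cycle genes, 22 of cholesterol synthesis, 22 of oxidative phosphorylation, 22 ribosomal protein genes, 19 TGF-beta and BMP targets and 10 housekeeping genes. Over all genes tested 3.73% were called. At that share lists this short can lack calls, so their absence is no result about these programmes. A list of 22 metallothionein and antioxidant genes had 3 (13.6%), all higher, of which Gclc (0.32), for glutathione synthesis, was the one that is no metallothionein. Single calls came from the heat shock list (Hspb1, 0.56 ± 0.06), the adrenergic list (Adcy5, 0.52 ± 0.06) and the ER stress list (Ddit3, -0.36 ± 0.06). With 14, 16 and 23 genes tested in these lists, the shares called were 7.14%, 6.25% and 4.35%, near that of all genes. Lamb1 (-0.47 ± 0.06) and Mmp14 (-0.67 ± 0.13) were the calls among 19 extracellular matrix genes (10.5%). Mmp14 differed by -0.37 and -0.39 in the Vehicle and E2 pairs and by -0.97 and -0.95 in the Dex and Dex+E2 pairs. Another Mmp14 probe gave -0.35. Between Dex labels in arrays 1 and 2 Mmp14 was at -0.26 and not called (limma adjusted p = 0.13). The largest absolute differences in uncalled lists were those of Mki67 (-0.27), Hmgcs1 (-0.26), Tgfbi (-0.47) and Ppia (0.15).

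The 648 genes were then followed in the arrays numbered 1 and 2, which share no array with numbers 3 and 4. In those 8 arrays the labels with Dex (Dex and Dex+E2) were set against the labels without, which called 1206 of 17311 genes (6.97%; limma, adjusted p under 0.05), 663 of them higher (3.83%) and 543 lower (3.14%). Dex+E2 and E2 of those numbers lie on different slides and the fit had no slide term. For them label and slide cannot be told apart. Both comparisons called 480 genes in the same direction, 263 higher and 217 lower, and 1 gene, Synpo2, in opposite directions through different probes: the probe used for the numbers gave 0.83 between numbers and 0.88 between labels, and the other -0.54 between labels. Of the 648 genes 633 were tested in both. These 480 are 74.1% of the calls by number and 39.8% of the calls by Dex label. All 319 genes called higher on number 4 were also higher with Dex in the label of arrays 1 and 2, and 324 of the 329 called lower were lower, against 60.1% with matching sign over all genes. The median label difference was 0.76 for the genes called higher and -0.42 for those called lower. The median ratio of the label difference to the number difference was 0.92 (quartiles 0.72 and 1.13). Across the called genes Pearson's r was 0.94, and across all genes 0.53; genes are not independent replicates.

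Per1 differed by 2.75 ± 0.07 between Dex labels in arrays 1 and 2, beside 3.08 ± 0.08 between numbers. The same values were 2.31 and 1.92 for Klf15, 3.22 and 3.09 for Arrdc2, and 4.71 and 4.05 for Trim67. Among genes that fell they were -1.49 and -1.40 for Nmrk2, -1.30 and -1.35 for Cacna1g, and -1.62 and -1.20 for Efnb3. On slide 1 alone, where Dex 1 and 2 lie beside Vehicle 1 and 2, the Dex label called 43 of 17311 genes (0.248%, limma). There 318 of the 319 genes were higher with Dex and 323 of 327 lower, against 68.2% with matching sign over all genes. Dex+E2 1 and 2 against E2 1 and 2, on different slides, matched for 316 of 319 and 310 of 328, against 48.5%.

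**Figure D4:**
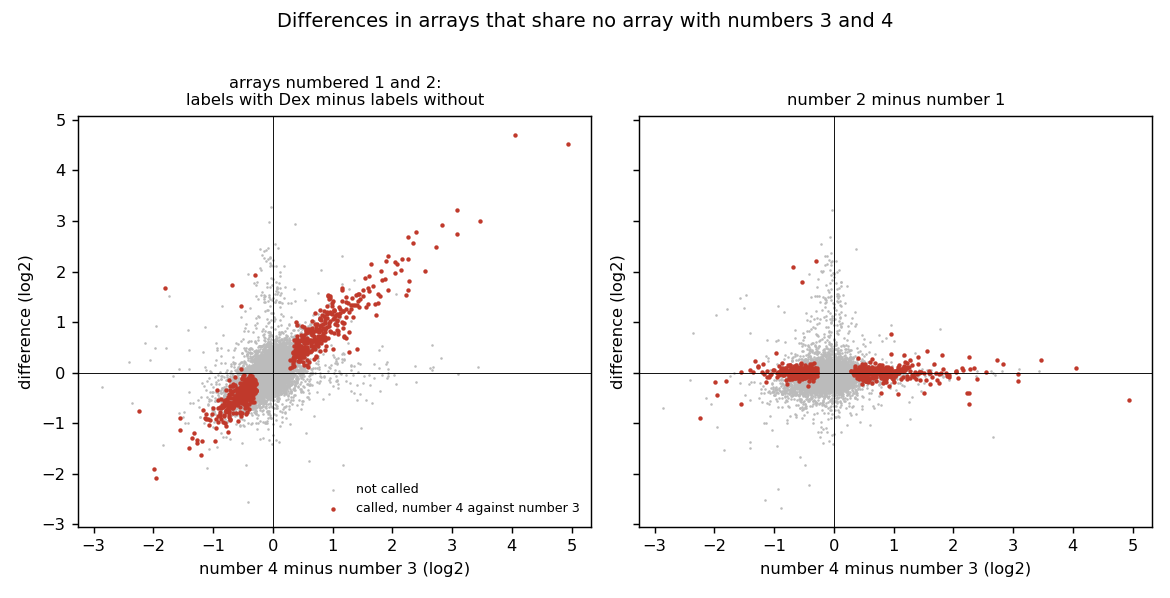
Each point is a gene, with its difference of number 4 minus number 3 on the horizontal axis (log2); the vertical axis gives, on the left, labels with Dex minus labels without in arrays numbered 1 and 2, and on the right, number 2 minus number 1. Called genes (red) lie along a rising line on the left, with r of 0.94, and mostly near 0 on the vertical axis on the right.

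A few genes did not follow in sign, or were called in 1 of the comparisons only. Lhcgr fell by 1.80 ± 0.23 between numbers and differed by 1.68 ± 0.66 between Dex labels in arrays 1 and 2, where it did not pass the filter on dim probes. Nfkbie, Ldlrad4 and Ptpn21 also had opposite signs, with standard errors of 1.61, 1.38 and 1.70 in arrays 1 and 2, so these differences were not resolved. Conversely, Pdzd2 and Myom2 were called by Dex label in arrays 1 and 2 (1.55 and 1.13), and in numbers 4 against 3 stood at 2.07 and 0.67 with limma adjusted p of 0.051 and 0.068. Hoxa6 differed by -1.34 ± 0.24 in arrays 1 and 2 and by -0.07 ± 0.40 here, so its difference here was not resolved. These genes were picked after their values were seen.

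The paired comparison of number 2 with number 1 called 0 of 17311 genes (limma), and 204 had a p under 0.05 before adjustment, against 866 expected by chance. Leaving out the intensity trend gave 0 calls and 334 unadjusted. Without the Vehicle pair there were 0 calls and 1055 unadjusted, and 107 to 290 unadjusted without 1 of the other pairs. Across genes, pair differences correlated at -0.25 to 0.48 for 2 minus 1 and at 0.10 to 0.41 for 4 minus 3. For 2 minus 1, E2 and Dex+E2 gave the 0.48, and Vehicle and E2 the -0.25. The 0 calls therefore do not show that numbers 1 and 2 were alike within a pair. Of the genes called higher on number 4, 174 of 319 were positive in 2 minus 1, and of those called lower 169 of 329. Over all genes tested 7927 of 17355 were positive. Across all genes, r between 4 minus 3 and 2 minus 1 was 0.08. A test of the difference itself, in which the change from 3 to 4 was set against the change from 1 to 2 over all 16 arrays, called 372 of 17717 genes (2.1%), 212 with the larger difference on the positive side and 160 on the negative. The smallest p-values in it belonged to Tent5b, Per1, Adamts1, Adarb1 and Map3k6, and Per1 differed by 3.10 ± 0.11. The median absolute difference within a pair was 0.08 to 0.18 for 2 minus 1 and 0.11 to 0.20 for 4 minus 3.

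Within the 8 arrays the hormone labels gave no calls. Labels with Dex against labels without, with number as a term, called 0 of 17355 genes, had 1247 below 0.05 before adjustment and gave a smallest adjusted p of 0.53 (limma, Chrna10, -0.58). Labels with E2 against labels without called 0, with 877 unadjusted and a smallest adjusted p of 0.85. The label comparison lies across slides except for E2 and Dex+E2. On slide 4, where both labels lie together, 75 genes were called (0.432%), 7 higher with Dex and 68 lower, under the one scaling run for it. For the genes called between numbers, the median Dex label difference was -0.01 among those higher on number 4 and -0.01 among those lower. For Per1 it was 0.10 (limma adjusted p = 0.75) and for Klf15 -0.05 (0.84). The E2 label difference of Per1 was 0.00 (1.00).

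The change from number 3 to 4 was next compared between labels with and without Dex. The interaction called 0 of 17355 genes, had 3377 below 0.05 before adjustment (19.5%; 868 expected by chance) and gave a smallest adjusted p of 0.11 (limma). That count was 2125 with quantile normalization and 1968 in the deposited table, again with 0 calls. Alpl, alkaline phosphatase, was lower on number 4 by 0.96 in the Dex pair and by 1.12 in the Dex+E2 pair, and differed by -0.08 and 0.03 in the Vehicle and E2 pairs. Ltbr, the lymphotoxin beta receptor, was lower by 0.57 and 0.65 in the Dex and Dex+E2 pairs and higher by 0.07 and 0.06 in the Vehicle and E2 pairs. Per1 had an interaction of 0.08 (adjusted p = 0.82). By E2 label the interaction called 0 genes, with 193 unadjusted.

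Oxidative phosphorylation and ribosomal protein genes had medians that differed by label under 1 of the 2 scalings compared. The 22 oxidative phosphorylation genes had medians of 0.12 in the Vehicle pair and 0.12 in the E2 pair, and of -0.19 in the Dex pair and -0.21 in the Dex+E2 pair, and 18 of the 22 had an unadjusted interaction p under 0.05. The ribosomal protein genes had 0.11, 0.12, -0.14 and -0.17. The pattern was not particular to these lists. In the same order, the heat shock list had 0.13, 0.06, -0.12 and -0.14. The metallothionein and antioxidant list had 0.12, 0.07, -0.11 and -0.08, and all genes tested had 0.01, -0.00, -0.08 and -0.05. In the authors' deposited log2 table, which gives every array the same distribution, the same medians were -0.03, 0.03, -0.04 and -0.01 for oxidative phosphorylation and -0.00, 0.00, 0.00 and 0.03 for ribosomal proteins. For oxidative phosphorylation and ribosomal protein genes the difference between labels was thus present under scaling to the 75th percentile and not in the deposited table.

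The calls were also made in each kind of label separately, an alternative chosen after seeing the data. The Vehicle and E2 pairs alone called 33 genes (0.19%), all higher on number 4, and all 33 had the same sign in both the Dex and the Dex+E2 pair. They included Slc10a6, Trim67, Per1, Arrdc2, Klf15, Mt1, Mt2, Cebpb, Cebpd, Cxcl12, Myoz2 and Ddit4, and further Adarb1, an RNA-editing deaminase (1.88 ± 0.05), the heart-enriched gene Lrrc10 (1.59 ± 0.08) and Phyhd1 (1.31 ± 0.13). In the deposited table the same pairs called 189 (1.09%), of which 50 were lower. The Dex and Dex+E2 pairs alone called 2536 (14.6%; 500 higher and 2036 lower), and 706 (4.07%; 272 and 434) in the deposited table. Of the 500 genes called higher there, 430 were higher in the Vehicle pair, 438 in the E2 pair and 391 in both. Of the 2036 called lower, 1126 were lower in the Vehicle pair, 1273 in the E2 pair and 939 in both. The share of all genes with that sign in both the Vehicle and the E2 pair was not computed, so these counts have no matching background. Over all genes tested, 9.92% were higher and 16.2% lower in all 4 pairs, which is a stricter count. Each fit by kind of label rests on its own pairs alone, and so on few arrays. The interaction of number with Dex label, which tests the difference between the kinds of label, called 0 of 17355 genes.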

How the data were processed

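Total RNA of HL-1 cells was labelled with Cy3 and hybridised to 1-colour Agilent mouse arrays. Per the file headers and the submitters' processing notes, the authors extracted spot intensity with Agilent Feature Extraction 12, which subtracts background and marks spots well above it. A deposited log2 table of all 16 arrays was used as an alternative. Its sorted columns were identical, its median was 4.70, each column matched its own array best (lowest r 0.999), and no source used here states how it was made.

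From the deposited processed intensity, control spots and outlier flags were left out, spots of a probe were averaged, and log2 levels were taken relative to the 75th percentile of each array (43379 spots, 41174 probes). Symbols came from RefSeq through the accession: 28223 probes were named. A gene was tested on its brightest probe if all 4 arrays of either number had it well above background. Differences were fitted with limma 3.58.1 in R 4.3.3 (label as a block, eBayes with trend, 3 residual degrees of freedom; of the 17355 genes, 149 lacked a value on at least 1 array and were fitted without it). Named genes were the 15 largest called differences in each direction with no overlap between the numbers, up to 4 called members of each of 28 lists, a fixed panel, and the smallest p-values of the other comparisons. Not all of the latter are printed. Members and lists were chosen with earlier results of these data known. The labels number the arrays of each label from 1 to 4, and the block follows these numbers because both arrays of a pair share a slide. The fits were tested on simulated data. Alternatives were the normalization, the background correction (normexp, offset 50, on the median spot signal in place of the mean), the deposited table, the filter, the probe rule, the trend, the block and leaving out each pair.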

Additional observations from a re-analysis of the deposited data

Results flagged for a closer look

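In 7 of 166 groups of 4 arrays examined for the named genes, 1 array lay far from the other 3 (Dixon's test at 95%); chance flags about 1 in 20. On Vehicle 3, which stood apart from the other arrays on the first principal component, Vcam1 was at 2.00 (others of number 3 at 2.17 to 2.19), Lamb1 at -0.70 (others -0.63) and Mt1 at 4.11 (others 4.18 to 4.19). On Vehicle 4 Adcy5 was at 0.29, against 0.44 to 0.46 on the other arrays numbered 4. On Dex 3 Dio2 was at -2.57, against -3.54 to -3.47. On Dex 4 Kcnh1 was at -4.07, against -5.05 to -4.94, and Col1a1 at 4.55, against 4.72.

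The change from number 3 to 4 differed from the change from number 1 to 2 for 372 genes (limma, interaction over 16 arrays). Without the Vehicle pair, 663 genes were called between numbers 4 and 3.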

How the results depend on the processing

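The count of 648 genes was 797 with quantile normalization, 713 with normexp and quantile normalization together, 711 in the deposited table, 668 with the stricter filter, 650 with probes averaged and 439 without a trend. It was 249 with no filter on dim probes, which tests 31758 genes, and 1047 with all 16 arrays in the fit. Without 1 pair it was 180 to 663: 180 without the Dex pair, 211 without the Dex+E2 pair, 221 without the E2 pair and 663 without the Vehicle pair. With the pairing dropped (no replicate block) it was 1048, and 629 of the 648 genes kept their call. Deviations of arrays of 1 label correlated at -0.05 to 0.12, and the best match was the own label in 2 of 4. After seeing the data, the pairs with Dex labels alone gave 2536 (706 in the deposited table), those without gave 33 (189), slide 4 alone gave 75 calls by Dex label, where all 8 arrays gave 0, and slide 1 alone gave 43 against 1206 in arrays 1 and 2. Leaving out 1 array there gave 348 (without Dex 1) to 3510 (without Vehicle 1), and 357, 481, 550 and 577 without Dex 2, Dex+E2 2, Dex+E2 1 and E2 1. The cause of these changes was not tested.

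None of the 71 named genes called changed sign under any of these settings. Calls were lost by 31 of them without the Dex pair, 28 without the Dex+E2 pair, 27 without the E2 pair, 3 without the Vehicle pair, 28 with no filter, 9 without a trend, 4 with normexp and quantile normalization and 3 with probes averaged. The most were lost in the Vehicle and E2 pairs alone, 57 (36 in the deposited table), against 2 in the Dex and Dex+E2 pairs (11). Among the small calls, Tsc22d3, Klf6 and Gclc were lost without any 1 of the 4 pairs. Uncalled genes near 0 changed sign: Cd68 was at 0.0309 (quantile), 0.00030 (normexp and quantile), 0.0377 (deposited table), 0.101 (Vehicle and E2 pairs, deposited table) and between -0.112 and 0.0155 without 1 pair. In the Vehicle and E2 pairs Cox7a1 was at 0.0766 and Rpl11 at 0.0874, and in the deposited table of those pairs Ppia was at -0.0316. Number 2 against number 1 and both interactions gave 0 calls under all settings run. With 4 arrays a number, the arrays limit precision, and probes near background have levels that the signal does not resolve.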

Other observations

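Further genes outside the lists were higher on number 4 in all 4 pairs and were also called in the Vehicle and E2 pairs alone; they were chosen after their values were seen. Crispld2, a secreted protein, rose from a mean of -1.62 ± 0.13 (SD, n = 4) on number 3 to 0.14 ± 0.03 on number 4, by 1.63 in the Vehicle pair and by 1.96 in the Dex+E2 pair. Dapk2, a calmodulin-regulated kinase linked to cell death, rose from 0.14 ± 0.11 to 1.32 ± 0.32, and its rise was 1.49 in the Vehicle pair, 1.55 in the E2 pair, 1.03 in the Dex pair and 0.65 in the Dex+E2 pair. Por, the electron donor of microsomal cytochrome P450 enzymes, was bright on all arrays and rose from 4.87 ± 0.22 to 5.83 ± 0.18. Cav1, the main coat protein of caveolae, rose from 4.37 ± 0.19 to 5.15 ± 0.08. Slc41a3, of a family of magnesium transporters, rose from 3.86 ± 0.07 to 4.98 ± 0.08, and its 4 pair differences lay within 1.06 to 1.23. Vasn, a membrane protein that binds TGF-beta, rose from 2.06 ± 0.22 to 3.07 ± 0.16. In arrays numbered 1 and 2 the difference between labels with and without Dex was 1.55 for Crispld2, 1.22 for Dapk2, 1.02 for Por, 1.07 for Cav1, 1.25 for Slc41a3 and 1.23 for Vasn.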
